A study of Mus musculus with 32 samples.

Results

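The complement genes *C1qa*, *C1qb*, *C1qc*, *C3*, *C4b*, *Cfb*, *Cfp*, *C3ar1* and *C5ar1* were followed through the liver cells and tumors of a mouse model of colorectal cancer (CRC) liver metastasis. The 9 genes were chosen by name, as all measuring probes that the array files assign to them. The rule used no measured value, though earlier results of these data were known. They have 10 probes, of 34821 gene names and 55681 probes on the array. *C3* has 2 probes and each other gene has 1.

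Male Balb/c mice of 6 to 8 weeks carried liver metastases of C26, a colon carcinoma line of the same strain, for 14 days after the cells were injected into the spleen, and control mice received saline. Sinusoidal endothelial cells, Ito cells (hepatic stellate cells) and Kupffer cells (the resident macrophages of the liver) were isolated from control livers (groups EC, IC and KC) and from the tumor microenvironment, TME (groups ET, IT and KT). Groups TM and TP are the cells of the liver metastases and of the CRC primary. Each of the 8 groups has 4 biological replicates by the study's methods, and the mice behind a sample are not given in the sources used here. The model rests on a single tumor line, and the fractions were enriched by density gradients and adherence and kept in culture before their RNA was taken.

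Complement is a cascade of plasma and cell surface proteins that marks targets for uptake or lysis. C1q, made of the chains encoded by *C1qa*, *C1qb* and *C1qc*, recognises antibody and damaged cells and starts the classical pathway, in which C4 is cleaved and joins C2 to form an enzyme that cleaves C3. Factor B (*Cfb*) forms the alternative pathway enzyme that cleaves more C3, properdin (*Cfp*) stabilises that enzyme, and *C3ar1* and *C5ar1* encode the receptors of the cleavage products C3a and C5a. Hepatocytes secrete most plasma C3, C4 and factor B, whereas macrophages are a main source of C1q and properdin.

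The 32 samples were read from the channels of 16 two-colour arrays, and levels are log2 values after quantile normalization, comparable between samples of a probe but not between probes. Between 38.4 and 57.1% of the spots of a channel were well above background. Control and TM samples carried the dye Cy3 and TME and TP samples Cy5 on every array, so that dye and group cannot be told apart in TME against control and in TP against TM. Endothelial and Ito arrays were on slide 1 and Kupffer and tumor arrays on slide 2, so that slide and group cannot be told apart where Kupffer cells were compared with the other liver cells. In cell fractions such as these, fewer cells of a type and less RNA per cell cannot be told apart.

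Some channels stood apart or went against their labels. Over the 17050 probes that every channel measured well above background, the IT minus IC difference on array 4 correlated at -0.66 with the mean of the other Ito arrays, and the KT minus KC difference on array 4 at -0.60 with that of the other Kupffer arrays. IT replicate 2 and KC replicate 3 had the lowest mean correlation with their own liver cell group, 0.952 and 0.968. Calls that were lost without these channels are given as such beside the values. By group means, marker lists went with the labels of endothelial and Kupffer cells and not with that of Ito cells. The mean log2 level of 8 endothelial markers was highest in EC at 12.6, and that of 8 Kupffer markers in KT at 13.8. The 8 Ito markers, among them *Lrat* and *Des*, averaged 7.91 in IC and 8.40 in IT and 9.19 in EC. The 8 hepatocyte markers averaged 13.2 in IC and 13.3 in IT, above the other 4 liver cell groups.

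The sequences of 5 probes are shown, 5′ to 3′ with all letters in lower case, at mm9 positions on the minus strand. They are those of *C1qa* (chr4:136452409-136452468), *C1qb* (chr4:136436578-136436637), the second *C3* probe (chr17:57343678-57343737), *Cfb* (chr17:34993502-34993858, a stretch longer than the 60 bases of the probe) and *Cfp* (chrX:20502742-20502801).
C1qa: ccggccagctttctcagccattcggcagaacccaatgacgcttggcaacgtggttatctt
C1qb: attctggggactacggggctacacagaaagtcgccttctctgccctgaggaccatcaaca
C3 second probe: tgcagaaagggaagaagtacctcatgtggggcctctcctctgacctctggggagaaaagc
Cfb: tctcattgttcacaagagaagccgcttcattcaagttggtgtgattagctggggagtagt
Cfp: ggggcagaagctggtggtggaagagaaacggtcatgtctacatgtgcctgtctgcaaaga
The other probes lie on the minus strand at chr4:136445766-136445825 for *C1qc*, chr17:57343416-57343475 for the main *C3* probe, chr17:34865328-34865387 for *C4b*, chr6:122798222-122798281 for *C3ar1* and chr7:16832243-16832302 for *C5ar1*. The *C1q* probes lie within 15891 bases of each other, and those of *C4b* and *Cfb* within 128531 bases. The *C4b* probe is also assigned to the near-identical gene *C4a* by the transcripts listed for it in the array files, so its signal may hold both. No annotation of mm9 was used here, so exons and UTRs are not given.

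*C1qb* was higher in Kupffer than in endothelial cells, and *C1qa* and *C1qc* ran alike. The log2 level of *C1qb* was 11.59, 11.83, 11.82 and 11.66 in EC, 12.15, 11.92, 11.92 and 14.12 in IC and 14.38, 13.88, 13.65 and 14.81 in KC, for replicates 1 to 4. All KC values were above all EC values, and IC replicate 4 lay among the KC values. The mean was 14.18 ± 0.52 (SD, n = 4) in KC and 11.73 ± 0.12 in EC, a difference of 2.46 ± 0.50 (SE), or 5.49-fold (limma adjusted p = 0.000573). *C1qa* and *C1qc* differed by 2.39 ± 0.91 (adjusted p = 0.0642) and 1.95 ± 0.96 (adjusted p = 0.167). Their KC values too were all above their EC values. The spread of a probe is shared by all 8 groups, and *C1qa* and *C1qc* were near background in some tumor channels, where their SD reached 2.38 and 3.26, against at most 1.12 in a liver cell group. In a fit of the 24 liver cell channels alone, chosen after seeing the data, both differences had lower adjusted p-values (0.00202 and 0.00281).

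Among TME cells, *C1qb* was 11.73, 11.91, 11.34 and 11.70 in ET, 13.87, 12.01, 13.58 and 12.24 in IT and 14.84, 14.62, 14.68 and 14.15 in KT. All KT values were above all ET and IT values, and the IT values fell apart into a higher and a lower pair. KT exceeded ET by 2.90 ± 0.50, or 7.48-fold (adjusted p = 8.07e-05), and IT by 1.65 ± 0.50, or 3.13-fold (adjusted p = 0.0233). The latter call was lost without IT replicate 2 and KC replicate 3 (1.34, adjusted p = 0.0838). It was also lost without replicate 1, 2 or 3 of all groups (adjusted p = 0.0511, 0.226 and 0.0543). *C1qa* and *C1qc* were 7.60-fold and 6.29-fold higher in KT than in ET, with adjusted p-values of 0.0203 and 0.0467. The call of *C1qc* was lost without array 4 of the Ito and Kupffer cells (2.85, adjusted p = 0.0600), in the deposited table (adjusted p = 0.0570) and without any single replicate of all groups. That of *C1qa* was lost without replicate 1, 2 or 3 (adjusted p = 0.0912, 0.118 and 0.0624). Over the 24 liver cell channels *C1qa* correlated with *C1qb* at 0.98 and with *C1qc* at 0.99, a description across channels that share arrays. The mean of the Kupffer markers, which includes none of the C1q genes, ranged from 10.71 to 11.06 in EC, from 12.33 to 13.80 in IC, from 12.08 to 14.12 in KC, from 10.23 to 13.67 in IT and from 13.35 to 13.94 in KT. IC overlapped KC and IT overlapped KT in it. Its correlation with *C1qa*, *C1qb* and *C1qc* over these channels was 0.89, 0.90 and 0.90. All 8 Kupffer markers were well above background in all channels of EC and IC too. The part of the number of macrophages in these differences was not tested.

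**Figure D1:**
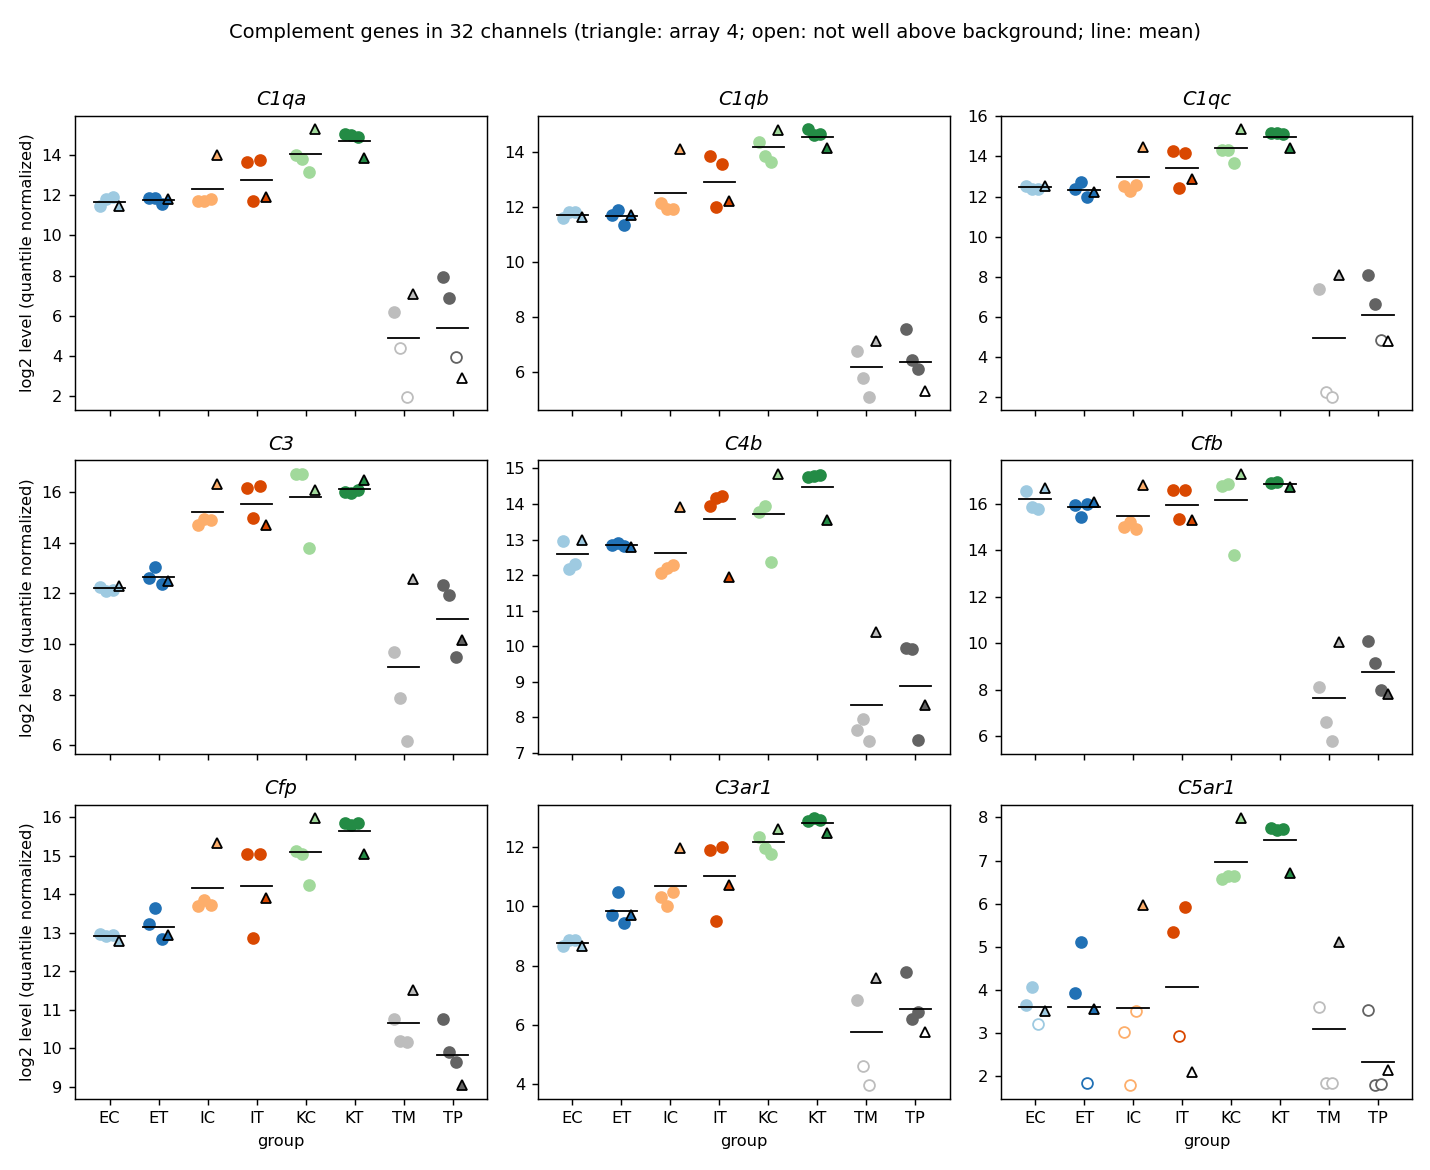
Log2 level after quantile normalization (vertical axis) of the 9 complement genes in each group (horizontal axis), with 4 channels per group as points and their mean as a line. Triangles are array 4, open symbols are channels in which the probe was not well above background. KC and KT are highest for *C1qa*, *C1qb* and *C1qc*, and the tumor groups TM and TP lie below every liver cell value for 7 of the genes, all but *C3* and *C5ar1*.

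*C3* was higher in Ito and in Kupffer cells than in endothelial cells. The gene of the protein on which all complement pathways converge was measured at 12.27, 12.12, 12.14 and 12.31 in EC, at 14.70, 14.96, 14.91 and 16.34 in IC and at 16.71, 16.73, 13.78 and 16.08 in KC. The EC values were all below the IC and KC values, and KC replicate 3 was below every IC value. IC exceeded EC by 3.02 ± 0.86, or 8.12-fold (adjusted p = 0.0229), and KC exceeded EC by 3.62 ± 0.86, or 12.3-fold (adjusted p = 0.00274). KC and IC differed by 0.60 ± 0.86 (adjusted p = 0.763). The second *C3* probe gave differences of 2.94 (adjusted p = 0.00646) and 3.61 (adjusted p = 0.000388) from EC. In the TME, *C3* was 12.63, 13.04, 12.37 and 12.49 in ET, 16.17, 14.99, 16.25 and 14.73 in IT and 16.00, 15.99, 16.09 and 16.48 in KT. ET stood below both other groups, by 2.90 ± 0.86 against IT (adjusted p = 0.034) and by 3.51 ± 0.86 against KT (adjusted p = 0.00339), and KT and IT overlapped. The call against IT was lost without replicate 1, 2 or 3 of all groups (adjusted p = 0.237, 0.0954 and 0.0821).

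The hepatocyte markers moved with *C3* between EC and IC, where 7 of 8 were called higher. Between IC and KC, where *C3* was not called different, all 8 markers were called lower in KC. Their mean correlated with *C3* at 0.68 over the 24 liver cell channels and with *C1qa* at 0.20. The mean of the Kupffer markers correlated with *C3* more closely, at 0.87. In KC replicate 3, where *C3* was lowest, the hepatocyte mean was 9.75, against 10.9 to 11.8 in the other KC channels, and the Kupffer mean was 12.1, against 13.2 to 14.1. Their part in the *C3* levels was not tested. Without array 4 of the Ito and Kupffer cells the difference of *C3* between IC and EC was 2.65 (adjusted p = 0.0865). Its call in IC against EC was also lost without replicate 1 or 2 of all groups (adjusted p = 0.118 and 0.126). The same held for its call in KC against EC (adjusted p = 0.053 and 0.0508).

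*C4b*, which encodes the classical pathway protein C4, differed less between the cell types. Its log2 level was 12.95, 12.17, 12.31 and 12.99 in EC, 12.06, 12.20, 12.28 and 13.92 in IC and 13.78, 13.94, 12.36 and 14.85 in KC. KC exceeded EC by 1.13 ± 0.65 (adjusted p = 0.254), and the EC and IC means of 12.60 ± 0.43 and 12.62 ± 0.87 were alike within their spread. In the TME it was 12.84, 12.90, 12.83 and 12.80 in ET, 13.95, 14.16, 14.23 and 11.94 in IT and 14.76, 14.78, 14.81 and 13.56 in KT. The KT values were all above the ET values, by 1.64 ± 0.65 in the mean (adjusted p = 0.0728), and without array 4 of the Ito and Kupffer cells by 1.94 (adjusted p = 0.0192). Unlike the C1q genes, *C4b* followed the monocyte markers, at a correlation of 0.90 over the liver cell channels, more closely than the Kupffer markers, at 0.64.

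No difference of *Cfb* between the liver cell types was called in the fit of all channels. Factor B was at 16.55, 15.88, 15.77 and 16.66 in EC, at 14.98, 15.23, 14.89 and 16.80 in IC and at 16.76, 16.83, 13.77 and 17.28 in KC. The groups overlapped, and KC and EC differed by -0.05 ± 0.73 (adjusted p = 0.984). In KT, replicates 1, 2 and 4 were at 16.88, 16.92 and 16.72, and the spot of replicate 3 was an outlier and left out, so that n = 3. These values were above all ET values, which lay between 15.41 and 16.08, with a difference of 0.98 ± 0.79 (adjusted p = 0.474). This difference was called in a fit of KT and ET alone (adjusted p = 0.00554) and by the methods' t-test (adjusted p = 0.0159). The correlation of *Cfb* with the monocyte markers was 0.62, with the Kupffer markers 0.46 and with the hepatocyte markers 0.07, over 23 liver cell channels.

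*Cfp* was higher in Kupffer than in endothelial cells. Properdin was at 12.98, 12.92, 12.94 and 12.79 in EC, at 13.70, 13.86, 13.73 and 15.34 in IC and at 15.13, 15.06, 14.23 and 15.98 in KC. No EC value reached an IC or KC value. KC exceeded EC by 2.19 ± 0.45, or 4.57-fold (adjusted p = 0.000691), while IC exceeded EC by 1.25 ± 0.45 (adjusted p = 0.0846) and KC exceeded IC by 0.94 ± 0.45 (adjusted p = 0.185). In the TME it was 13.23, 13.64, 12.84 and 12.93 in ET, 15.05, 12.86, 15.06 and 13.90 in IT and 15.85, 15.80, 15.84 and 15.04 in KT. KT exceeded ET by 2.47 ± 0.45 (adjusted p = 0.000171) and IT by 1.42 ± 0.45 (adjusted p = 0.032), and the latter call was lost without IT replicate 2 and KC replicate 3 (0.96, adjusted p = 0.122). It was also lost without replicate 1, 2 or 3 of all groups (adjusted p = 0.0769, 0.335 and 0.0585). *Cfp* followed the Kupffer markers most closely of the 9 genes, at a correlation of 0.97.

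The receptor gene *C3ar1* was higher in Kupffer than in endothelial cells. It was at 8.65, 8.86, 8.87 and 8.67 in EC, at 10.30, 10.03, 10.50 and 11.96 in IC and at 12.33, 11.97, 11.76 and 12.63 in KC. IC exceeded EC by 1.94 ± 0.61 (adjusted p = 0.0405), a call not kept without array 4 of the Ito and Kupffer cells (1.51, adjusted p = 0.166). This call was also lost without replicate 1, 2, 3 or 4 of all groups (adjusted p = 0.133, 0.0708, 0.122 and 0.178). KC exceeded EC by 3.41 ± 0.61, or 10.6-fold (adjusted p = 0.000145). KC and IC overlapped, IC replicate 4 lying above KC replicate 3, and differed by 1.47 ± 0.61 (adjusted p = 0.111). In the TME it was 9.70, 10.49, 9.44 and 9.72 in ET, 11.89, 9.52, 12.00 and 10.72 in IT and 12.88, 12.98, 12.91 and 12.47 in KT. All KT values were above all values of ET and IT, by 2.97 ± 0.61 (adjusted p = 0.000579) and 1.78 ± 0.61 (adjusted p = 0.0463) in the mean. The call against IT was lost without array 4 of the Ito and Kupffer cells (1.79, adjusted p = 0.106), without IT replicate 2 and KC replicate 3 (1.27, adjusted p = 0.182) and without any single replicate of all groups.

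*C5ar1* was well above background in all 4 channels of KC and of KT only, and in 3 of 4 in EC and ET, 1 of 4 in IC and 2 of 4 in IT. It was at 6.58, 6.65, 6.65 and 7.98 in KC and at 7.76, 7.71, 7.72 and 6.72 in KT, against 3.22 to 4.06 in EC, 1.86 to 5.11 in ET, 1.79 to 5.97 in IC and 2.11 to 5.92 in IT. No value of another liver cell group reached a Kupffer value. KC exceeded EC by 3.36 ± 0.85, or 10.2-fold (adjusted p = 0.00446), and IC by 3.39 ± 0.85 (adjusted p = 0.0062). KT exceeded ET by 3.86 ± 0.85, or 14.5-fold (adjusted p = 0.00118), and IT by 3.40 ± 0.85 (adjusted p = 0.00623). No fold is given against IC and IT, where at most 2 of 4 channels measured it. The call against IT was lost when IT replicate 2, KC replicate 3 and the Ito and Kupffer arrays 4 were all left out (2.10, adjusted p = 0.116). It was also lost without replicate 2 of all groups (adjusted p = 0.0642). The call against IC was lost without replicate 1 or 2 of all groups (adjusted p = 0.0722 and 0.0589). Both were lost in a limma fit of only the groups compared (0.0513 for IC and 0.055 for IT) and by the methods' t-test (0.0857 and 0.0769).

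Counted over the members, 5 of 9 were called higher in KC than in EC at an adjusted p under 0.05, against 8.89% of all probes, and their median difference was 2.39 against -0.01 over all probes. In KC against IC 2 of 9 were called higher (*C1qb* and *C5ar1*), against 7.23% of all probes, and in IC against EC 2 of 9 (*C3* and *C3ar1*), against 4.16%. In the TME, 7 of 9 were called higher in KT than in ET, against 9.56% of all probes, 4 of 9 in KT than in IT (*C1qb*, *Cfp*, *C3ar1* and *C5ar1*), against 7.83%, and 1 of 9 in IT than in ET (*C3*), against 3.58%. No member was called lower in these comparisons, where the shares of all probes called lower were 12.3% in KC against EC, 7.7% in KC against IC, 5.79% in IC against EC, 12.4% in KT against ET, 7.73% in KT against IT and 4.83% in IT against ET. By their values alone, 7 of 9 members lay above EC in every KC channel (12.5% of all probes), 1 of 9 above IC (9.16%), and 4 of 9 lay above EC in every IC channel (9.89%). In the TME, 9 of 9 lay above ET in every KT channel (16.1%), 6 of 9 above IT (11.9%), and 2 of 9 lay above ET in every IT channel (8.43%). At the study's limits of an adjusted p under 0.001 and 4-fold, 3 of 9 were called in KC against EC (2.65% of all probes) and 3 of 9 in KT against ET (2.33%). The calls between KC and IC and between KT and IT rested on few samples: without replicate 1, 2 or 3 of all groups the counts were 0, 0 and 1 in the former and 1, 0 and 1 in the latter. The counts of IC against EC and IT against ET were 0 or 1 without any of these replicates, and that of KC against EC 4 or 5. Without IT replicate 2 and KC replicate 3, an alternative chosen after seeing the data, 1 of 9 was called in KT against IT, and without array 4 of the Ito and Kupffer cells 3 of 9. The shares of all probes called without these samples are not given here. The counts therefore cannot be told apart from a general change in calls. In the fit of liver cell channels alone, 5 of 9 were called higher in KC than in IC, against 8.22% of all probes.

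**Figure D2:**
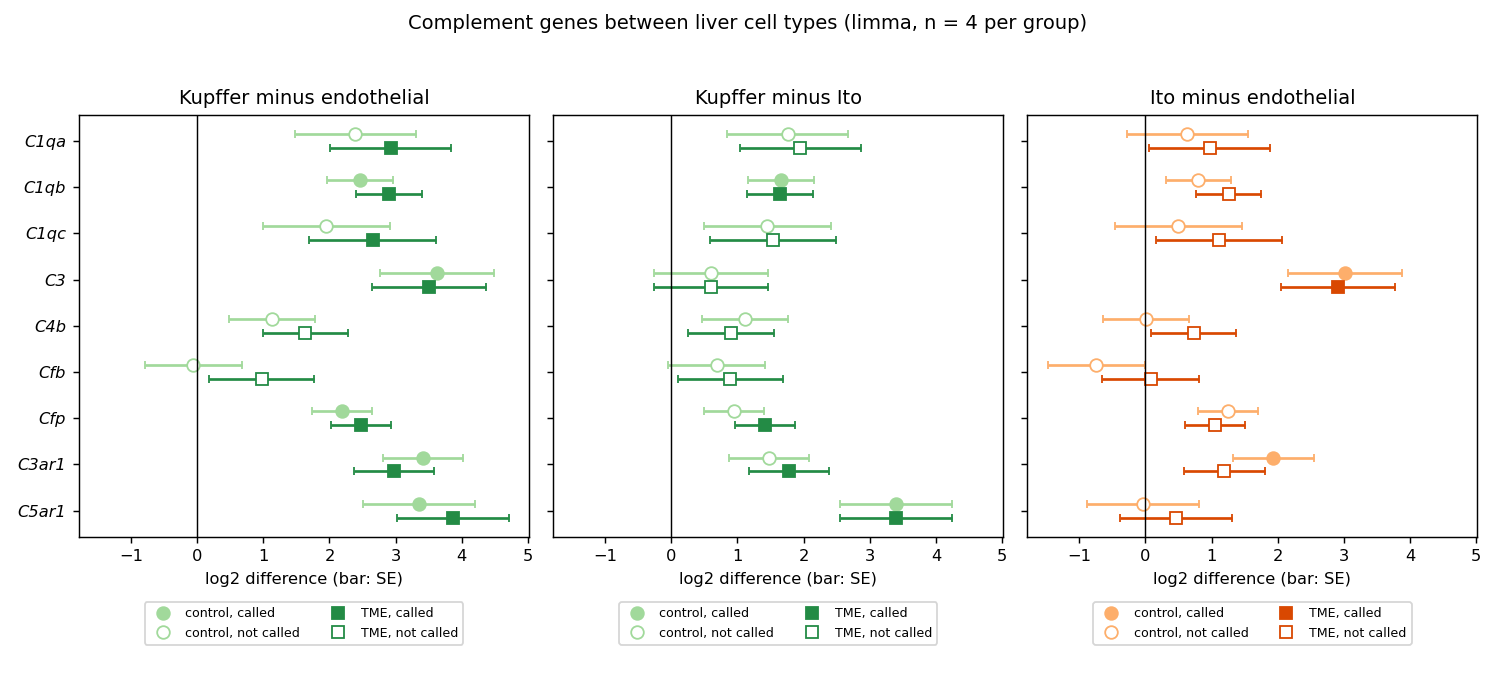
Log2 difference (horizontal axis) of each complement gene between Kupffer and endothelial, Kupffer and Ito and Ito and endothelial cells, in control cells (circles) and TME cells (squares), with the standard error of the limma fit as bars and n = 4 per group (3 for *Cfb* in KT). Filled symbols passed an adjusted p of 0.05. *C3ar1* and *C5ar1* stand 2.97 to 3.86 above endothelial cells in the Kupffer panels.

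By mean level, KT came first and KC second for 8 of the 9 genes, all but *Cfb*, which had EC between them, and TM and TP came last for all. Neighbours in that order often did not differ beyond their spread: KT and KC were called different for none of the genes. *Cfb* was at 16.22 ± 0.46 in EC and 15.48 ± 0.89 in IC, the only mean of a control group in which EC exceeded IC by more than the spread of EC (difference -0.74 ± 0.73, adjusted p = 0.677).

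**Figure D3:**
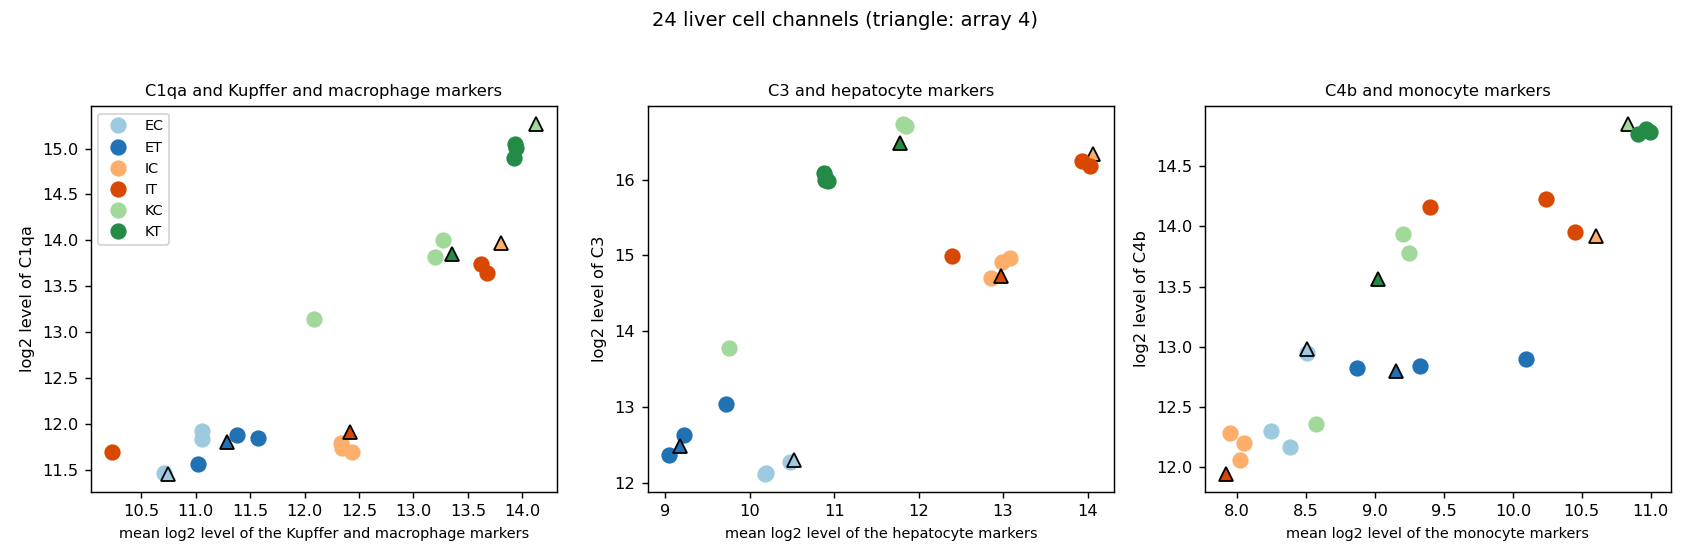
Log2 level of *C1qa*, *C3* and *C4b* (vertical axes) against the mean log2 level of Kupffer and macrophage, hepatocyte and monocyte markers (horizontal axes) in the 24 liver cell channels, coloured by group, with array 4 as triangles. Correlations are 0.89 for *C1qa*, 0.68 for *C3* and 0.90 for *C4b*, and the triangles of IC and IT and of KC and KT lie among the points of the opposite group.

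In TME against control cells no member was called in any of the 3 cell types, against 1.17% of all probes in ET against EC, 0.3% in IT against IC and 0.435% in KT against KC. At an unadjusted p under 0.05 none of the 9 passed either in these comparisons. In endothelial cells 2 members did not overlap between the groups, both higher in ET, where 7.06% of all probes did so. These were *C3*, with 12.37 to 13.04 in ET above 12.12 to 12.31 in EC (difference 0.42 ± 0.86), and *C3ar1*, with 9.44 to 10.49 above 8.65 to 8.87. *C3ar1* differed by 1.07 ± 0.61 (adjusted p = 0.802), was higher on 4 of 4 arrays, and passed in a fit of the EC and ET channels alone (adjusted p = 0.0331). The neutrophil markers averaged 7.70 in ET and 5.47 in EC, the Kupffer markers 11.3 and 10.9, and the monocyte markers ranged from 8.87 to 10.10 in ET and from 8.24 to 8.51 in EC, beside these differences, and their part was not tested.

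In Ito and Kupffer cells the members moved together within an array, and array 4 ran opposite. The difference between IT and IC was positive for 9 of 9 members on array 1 (median 1.72) and on array 3 (median 1.66), for 7 of 9 on array 2 (median 0.09), and negative for 9 of 9 on array 4 (median -1.62, from -3.86 to -1.25). For KT against KC it was positive for 8 of 9 on arrays 1 and 2 (medians 0.72 and 0.84), for 8 of 8 on array 3 (median 1.53), and negative for 8 of 9 on array 4 (median -0.94). The exception on arrays 1, 2 and 4 was *C3*, which was lower in KT on arrays 1 and 2. IC replicate 4 lay above IC replicates 1 to 3 for all 9 genes, and IT replicate 4 below IT replicates 1 and 3 for all 9. KC replicate 4 lay above the other KC channels, and KT replicate 4 below the other KT channels, for all but *C3*. On array 2 the members split: *C4b* was 1.96 higher in IT, and *Cfp* differed by -1.01.

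**Figure D4:**
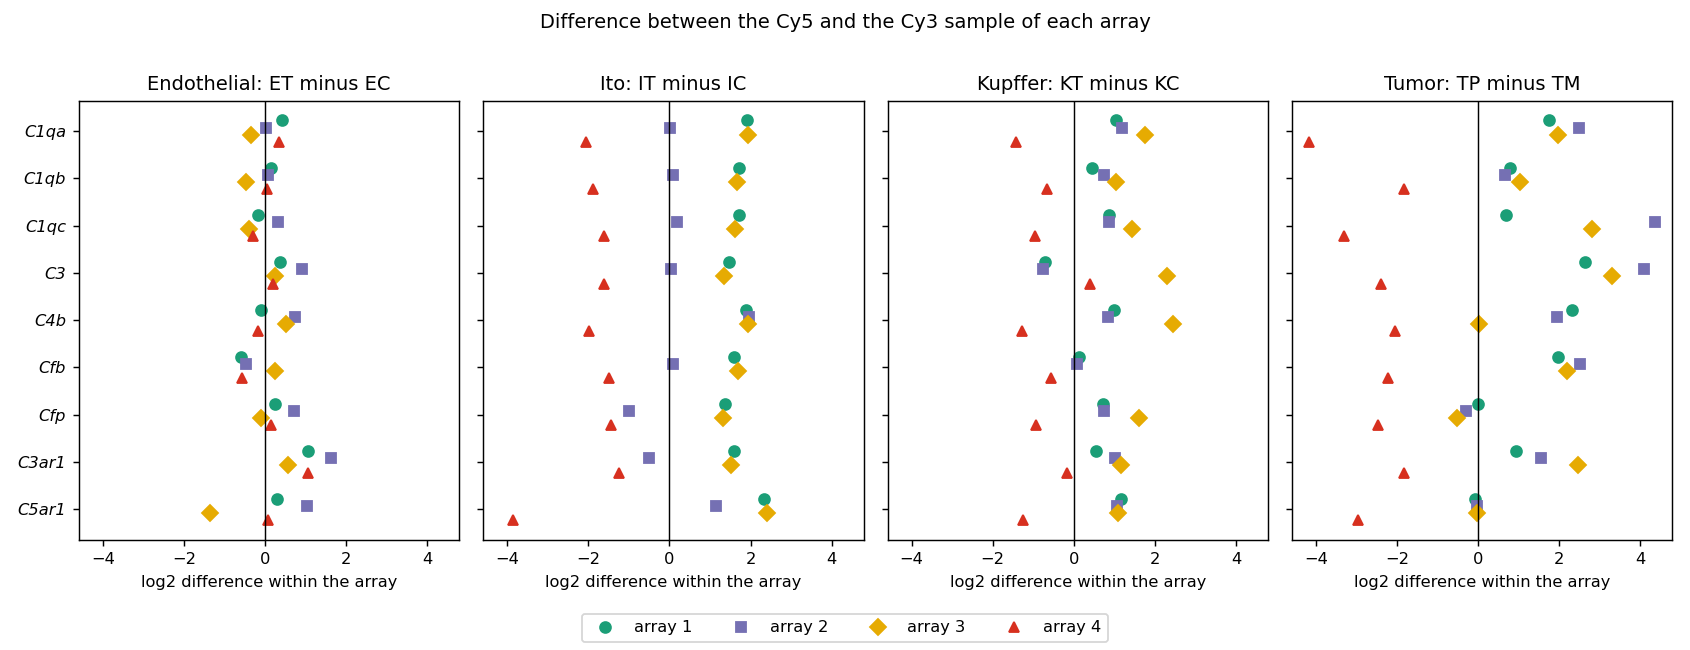
Log2 difference within each array (horizontal axis) between the Cy5 and the Cy3 sample, for each complement gene (rows) and each of 4 arrays per panel. Array 4 lies below 0 for all 9 genes in the Ito and tumor panels and for 8 in the Kupffer panel, where the other arrays lie mostly above 0, while the endothelial points scatter around 0 except those of *C3* and *C3ar1*.

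Without array 4 of the Ito and Kupffer cells all 9 members were higher in IT than in IC, by 0.56 (*Cfp*) to 1.96 (*C5ar1*), and again 0 of 9 were called, against 3.93% of all probes called higher. The lowest adjusted p was that of *C4b*, 0.0635, at a difference of 1.93 ± 0.63. In KT against KC all 9 were higher as well, by 0.28 (*C3*) to 1.43 (*C4b*), with 0 of 9 called, against 1.79% of all probes. In the fit of liver cell channels alone without array 4, 4 of 9 were called higher in IT against 6.2% of all probes: *C1qa* (adjusted p = 0.0378), *C1qb* (0.0338), *C1qc* (0.037) and *C4b* (0.000739). In the same fit *C4b* was called in KT against KC (adjusted p = 0.0117), against 3.03% of all probes. Leaving out IT replicate 2 and KC replicate 3 too gave 3 of 9 in IT against IC, against 6.4% of all probes (*C1qb*, *Cfp* and *C5ar1*), and 0 of 9 in KT against KC, against 2.31%. Of the marker lists, the neutrophil list had 5 of 8 genes called higher in IT and 2 of 8 in KT without array 4, and the monocyte list 2 of 6 in each, and their part in the members' differences was not tested. The changes in the TME were not shown to differ between cell types: the lowest adjusted p of a member for such a difference was 0.995.

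In the tumors all 9 genes lay far below the Kupffer level. All 9 were called lower in TM than in KC, against 16.6% of all probes, and all 9 lower in TP than in KT, against 18.2%. Shares of 22.6% and 25.1% of all probes were called higher in these comparisons. The dye and slide were the same within each of these pairs. *C1qb* was at 6.76, 5.76, 5.08 and 7.13 in TM and at 7.55, 6.43, 6.11 and 5.30 in TP, differences of -8.00 ± 0.50 from KC (255-fold, adjusted p = 3.1e-13) and -8.23 ± 0.50 from KT (299-fold, adjusted p = 1.51e-13). *C1qa* was well above background in 2 of 4 channels of each tumor group, as was *C1qc*. *Cfb* was 364-fold lower in TM than in KC (adjusted p = 3.08e-10) and *C3ar1* 85.4-fold (adjusted p = 1.1e-09). The smallest differences of the well measured genes were those of *Cfp* in TM, 21.8-fold (adjusted p = 4.12e-09), and of *C3* in TP, 35.5-fold (adjusted p = 1.37e-05). No TP channel had *C5ar1* well above background, and it was at least 3.29-fold lower there than in KT (adjusted p = 1.08e-05). All 8 Kupffer markers were called lower in both comparisons. Their mean was 4.43 in TM and 4.45 in TP, and 3 of the 8 were never well above background in each tumor group. The fall was not limited to Kupffer markers. All 8 endothelial and all 8 hepatocyte markers were called lower in both comparisons, and 5 and 7 of them were never well above background in each tumor group. Of the 8 Ito markers, 3 were called lower and 1 higher in TM against KC, and 2 and 2 in TP against KT. The part of these markers' cell types in the members' differences was not tested.

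*C3*, like *C4b*, *Cfb* and *Cfp*, remained well above background in all tumor channels. The level of *C3* was 9.70, 7.87, 6.16 and 12.58 in TM and 12.34, 11.96, 9.47 and 10.18 in TP. The spread within TM exceeded the difference between the groups, 1.91 ± 0.86 (adjusted p = 0.262). No member was called between TP and TM, against 2.91% of all probes, and at an unadjusted p under 0.05 only *C3* passed. As in the Ito cells, array 4 was negative for all 9 genes, with a median difference of -2.41. Arrays 1 to 3 had 7 of 9 positive each, all but *Cfp* and *C5ar1*, and medians of 0.95, 1.95 and 1.97. Without replicate 4, *C3* was 3.35 higher in TP and was called (adjusted p = 0.0384).

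The other complement genes on the array, 47 by a fixed list, were called in both directions between the liver cell types. In KC against EC 8 were called higher and 10 lower, against 8.89% and 12.3% of all probes. Higher were the integrin chains of the complement receptors, *Itgam* by 8.58-fold and *Itgb2* by 6.42-fold, and *Cpn2*, a subunit of the carboxypeptidase that inactivates C3a and C5a, by at least 1.74-fold, as it was not well above background in EC. Lower were *C1s* (-2.77), a protease of the C1 complex, and *Serping1* (-2.61), the gene of the C1 inhibitor. Among genes of the C1 complex, the recognition subunit *C1qb* was called higher in KC and the protease *C1s* lower.

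In IC against EC 15 were called higher and 5 lower, against 4.16% and 5.79% of all probes, and the latter, named after their values were seen, were *C1ra*, *C1rb*, *Cd55*, *Daf2* and *Cd59a*, with differences of -2.29 to -1.42. Among the former were 6 of the 7 terminal pathway genes. Among the large differences were those of *Vtn* (3.54) and *Hc* (3.16), which encode vitronectin and C5, together with *Cpn2* and *C9*, which were not well above background in EC and were at least 2.62-fold and 2.54-fold higher in IC. In KC against IC 3 were higher and 18 lower, against 7.23% and 7.7% of all probes, with 5 of the 7 terminal pathway genes lower, such as *C8a* (-2.58) and *C8b* (-2.49), and the regulators *C4bp* (-2.62) and *Cfi* (-2.57). The higher genes were *Itgax* (2.82), *Itgam* (2.38) and *Itgb2* (1.25). Hepatocytes are known to make most of these plasma proteins, and the hepatocyte markers moved the same way in both comparisons. Their part in these differences was not tested.

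In the TME the counts were 15 higher and 6 lower in KT against ET, 5 and 16 in KT against IT, and 15 and 2 in IT against ET, the 2 being *Cd55* (-2.68) and *Daf2* (-1.97), which protect cells from complement. All probes were called higher and lower at 9.56% and 12.4%, 7.83% and 7.73%, and 3.58% and 4.83% in these comparisons. The 5 higher in KT than in IT, named after their values were seen, were *Itgax* (2.74), *Itgam* (2.51), *Fcna* (1.87), *Itgb2* (1.82) and *Cd59b* (at least 1.14-fold, not well above background in IT). *Itgam* was 3.62 higher in KT than in ET, and *Fcna*, the gene of the lectin pathway protein ficolin A, 2.90 higher. *Mbl2*, a mannose-binding lectin gene, and *C4bp* were lower in KT than in IT, with differences of -2.92 and -2.85. Between TME and control, a single gene of the 47 was called in endothelial cells, *C8g* (-1.59 ± 0.30, adjusted p = 0.00447), and 0 in Ito and Kupffer cells by limma.

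**Figure D5:**
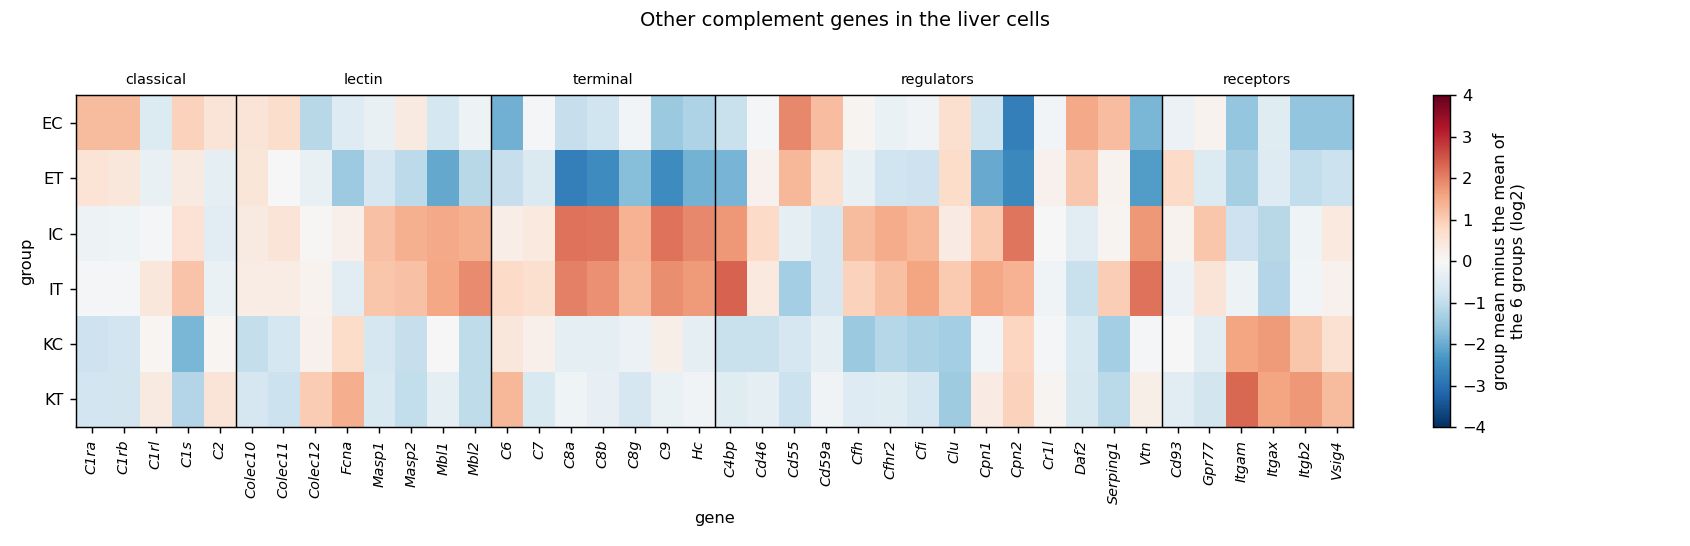
Mean log2 level of a group minus the mean of the 6 liver cell groups (colour, from -4 to 4) for 40 other complement genes (columns, by branch) in the 6 groups (rows). The terminal pathway genes other than *C6* and several regulators are highest in IC and IT, and the receptor genes *Itgam*, *Itgax* and *Itgb2* in KC and KT. *C6* is highest in KT.

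The genes most like each member over the 32 channels were sought among 18437 probes with a gene symbol. *C1qa* was most like *Ctsh* (Pearson r = 0.991), a lysosomal protease gene, *C1qb* most like *Slc31a2* (0.994), *C1qc* most like *Fcer1g* (0.992), *Cfp* most like *Btk* and *Ptprc* (0.988 each) and *C3ar1* most like *Cd72* (0.990). *Cfb* was most like *Il18bp* (0.989) and *C4b* most like *Ly6f* (0.976). The nearest genes to *C3* and *C5ar1* were less alike, *Csf2rb* at 0.957 and *Fam110b* at 0.939. The next genes in this order were *Pira11* and *Cd200r4* for *C1qa*, *Pira6* and *Slc11a1* for *C1qb*, *Ctsc* and *Arhgap25* for *C1qc*, *Clec4d* and *Plcg2* for *C3*, *Neu1* and *H2-T9* for *C4b*, *Tcn2* and *Rnf130* for *Cfb*, *Tec* and *Ptpro* for *C3ar1* and *Tmem219* and *Calm3* for *C5ar1*, and *Hcst* for *Cfp*. The 32 channels include those of the tumors, and over the 24 liver cell channels the correlations were 0.96 for *Ctsh*, 0.98 for *Btk*, 0.99 for *Cd72* and *Ptprc*, 0.93 for *Il18bp* and 0.88 for *Ly6f* and *Csf2rb*. They were lower for *Neu1* with *C4b* (0.81) and for *Tcn2* (0.78) and *Rnf130* (0.65) with *Cfb*.

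Promoters are shown for *C1qb*, *C1qc* and *C3*, as the 250 bases before the gene start in RefSeq for GRCm38.p6, on the minus strand. They lie at chr4:136886201-136886450, chr4:136892915-136893164 and chr17:57228137-57228386. Of the 9 genes 6 have an entry in that table. Capitals mark matches of GAGGAA, the core recognised by the macrophage factor PU.1, and of TTNNGNAA, a core of C/EBP factors, on either strand.
C1qb: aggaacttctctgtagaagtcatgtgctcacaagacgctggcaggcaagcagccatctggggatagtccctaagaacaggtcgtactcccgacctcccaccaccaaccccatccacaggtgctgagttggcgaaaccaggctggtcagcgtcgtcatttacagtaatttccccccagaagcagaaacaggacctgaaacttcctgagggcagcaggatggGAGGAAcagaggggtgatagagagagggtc
C1qc: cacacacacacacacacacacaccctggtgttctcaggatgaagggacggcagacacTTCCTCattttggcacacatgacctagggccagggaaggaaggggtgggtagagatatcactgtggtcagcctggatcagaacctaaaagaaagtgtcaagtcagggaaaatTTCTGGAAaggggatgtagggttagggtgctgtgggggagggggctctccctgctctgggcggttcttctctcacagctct
C3: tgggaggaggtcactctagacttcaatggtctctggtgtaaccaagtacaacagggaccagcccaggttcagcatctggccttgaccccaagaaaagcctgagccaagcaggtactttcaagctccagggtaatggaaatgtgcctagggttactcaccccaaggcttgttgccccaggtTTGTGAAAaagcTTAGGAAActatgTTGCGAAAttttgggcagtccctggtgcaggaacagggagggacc
GAGGAA was found in *C1qb*, 30 to 25 bases before the start, and on the other strand in *C1qc*, 193 to 188 bases before it, that is in 2 of 6 members and in 23.3% of 32851 promoters of this length. TTNNGNAA was found in 3 of 6 members and 36.8% of promoters, with 3 places in *C3*, of which the one nearest the start reads on both strands, 1 in *C1qc* and 1 in *C5ar1*.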

How the data were processed

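RNA of 32 samples in 8 groups was measured on 16 two-colour Agilent arrays, with groups, dyes and replicate numbers as the labels give them. The authors deposited, per spot and channel, the intensity from Feature Extraction 10.7.3.1 (processed signal, corrected for background and scaled between dyes), and a normalized table of linear intensity per probe and sample. Both samples of an array came with an identical file, of which only the sample's own channel was used. Control and outlier spots were dropped, log2 processed signals were averaged per probe and brought to a common distribution over the 32 channels (quantile normalization). The deposited table served as an alternative and differed from these levels by at most 0.173 for the members, except 1.55 for *C1qc* in a dim channel. All deposited sample columns were mapped.

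Differences were tested with limma 3.58.1 in R 4.3.3 (lmFit, eBayes), fitting all channels at once, with Benjamini-Hochberg adjustment over 55681 probes and calls at an adjusted p under 0.05. The p-values measure the spread between these samples. Precision is limited by having 4 arrays per group. On simulated data, 69.0 to 81.0% of 200 probes changed by 2 (log2) among 55561 were called, with 4 to 12 false calls, depending on the comparison. The simulation drew independent normal noise with the same spread of a probe in all groups and held no deviating channels. These rates may therefore not hold for the data. For a probe never well above background in a group, the fold is a bound against the lowest signal above background in its channels. Such bounds used levels after normexp background correction (offset 50), loess normalization within arrays and quantile normalization between them. They are not on the scale of the other differences, and the p-values beside them are those of the fit of all channels. For *C3* the probe with the higher variance was used.

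Members and lists were chosen with earlier results of these data known. All members are named, and of the other complement genes the 5 with the largest called difference per comparison, the genes of a direction with 5 or fewer calls, named after their values were seen, and the 3 genes most like each member. A gene that meets this rule is not reported here. Alternatives were other background corrections and normalizations, the deposited table, a filter on dim probes, the compared groups alone, the methods' t-test and limits (adjusted p under 0.001 and at least 4-fold, the scale of the stated threshold of 4 being unstated), the array as a block, and leaving out each replicate. Alternatives without single deviating channels or with liver cell channels alone were added after seeing the data. Probe sequences and mm9 positions are those of the array files, and promoters those of RefSeq for GRCm38.p6. Figures were drawn with matplotlib 3.10.9.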

Additional observations from a re-analysis of the deposited data

Results flagged for a closer look

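Of 72 sets of a member in a group, 71 had 4 values and were examined for a sample far from the others, and 14 had one by Dixon's limit, where chance flags about 1 in 20. Of these, 13 lay in array 4 of the Ito or Kupffer cells. In IC replicate 4 the log2 level stood above the other 3 for *C1qa* (13.98), *C1qb* (14.12), *C1qc* (14.49), *C3* (16.34), *C4b* (13.92) and *Cfp* (15.34). In IT replicate 4 that of *C4b* stood below (11.94). In KC replicate 4 that of *C5ar1* stood above (7.98). In KT replicate 4 those of *C1qa* (13.85), *C1qc* (14.40), *C4b* (13.56), *Cfp* (15.04) and *C5ar1* (6.72) stood below. The remaining value was that of *Cfb* in KC replicate 3 (13.77). In the same channels the mean of the Kupffer markers was 13.8 in IC replicate 4, against 12.3 to 12.4 in the other IC channels, 13.3 in KT replicate 4, against 13.9 in each other KT channel, and 12.1 in KC replicate 3, and the part of this in the values was not tested.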

How the results depend on the processing

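Alternatives without IT replicate 2 and KC replicate 3, and those with liver cell channels alone, were chosen after seeing the data. No difference of a member changed direction together with a call under any alternative. Differences that were not called changed sign in places, such as that of *C3* in KT against KC without array 4, IT replicate 2 and KC replicate 3. All 9 members were called lower in TM against KC and in TP against KT under each alternative that holds the tumor channels, except the methods' t-test at the study limits (1 and 6). No member was called for a difference in TME change between cell types under any alternative.

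In the fit of all channels 5 members were called in KC against EC, 2 in KC against IC, 2 in IC against EC, 7 in KT against ET, 4 in KT against IT and 1 in IT against ET. Counts that moved by less than 1.5 times are 6 or 7 in KC against EC and 6, 8 or 9 in KT against ET, and 3 or 5 in KT against IT. Counts that moved by 1.5 times or more are these, without the share of all probes unless it is given. With normexp and quantile or loess normalization, KC against IC had 4 calls, with quantile KT against IT had 6, and with loess IT against ET had 2. With the filter on dim probes IC against EC had 3. With only the groups compared, ET against EC had 1 and KC against IC and KT against IT 0, and with the methods' t-test these last 2 had 0 as well. That t-test called 4563 of 55681 probes in KC against IC and 6213 in KT against IT at an adjusted p under 0.05. With the study limits KC against EC and KT against ET had 3 and KC against IC, IC against EC, KT against IT and IT against ET 0. The methods' t-test at these limits called 1 member in KC against EC, 5 in KT against ET, 1 in TM against KC, 6 in TP against KT and 0 in the other comparisons. Of all 55681 probes it called 362 in KC against EC, 1045 in KT against ET, 3399 in TM against KC and 7074 in TP against KT. Leaving out each replicate gave 0 to 1 in IT against IC and in TP against TM, 4 to 5 in KC against EC, 0 to 2 in KC against IC, 0 to 1 in IC against EC and in IT against ET, 5 to 7 in KT against ET and 0 to 3 in KT against IT. Without replicate 1 or 2, *C3* missed the call in KC against EC (adjusted p = 0.053 and 0.0508). Without array 4 of the Ito and Kupffer cells IC against EC had 0 and IT against ET 2. Without IT replicate 2 and KC replicate 3, KC against IC and IC against EC had 3, KT against IT 1 and IT against ET 3, and without array 4 too IT against IC had 3, KC against IC 3, IC against EC and KT against IT 0 and IT against ET 4. With liver cell channels alone KC against IC had 5 and KT against IT 6, and without array 4 too IT against IC had 4, KT against KC 1, KC against IC 6, KT against IT 6 and IT against ET 5.

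The calls of other complement genes were 1 in ET against EC, 0 in IT against IC and KT against KC and 3 in TP against TM. In ET against EC they became 2 with loess, the filter on dim probes, without array 4 or with liver cell channels alone, 3 with the latter without array 4, 14 with only the groups compared, 10 with the t-test, 0 with the study limits, 6 without the deviating channels, 10 without array 4 too, and 0 to 1 without a replicate. The t-test called 2291 of 55681 probes there, and the shares of all probes under the other alternatives are not given here. In IT against IC they became 2 without array 4, 9 without the deviating channels too and 4 with liver cell channels alone. In KT against KC they became 1 without array 4, 6 without the deviating channels too, 2 with liver cell channels alone, and 0 to 1 without a replicate. In TP against TM they became 0 with normexp, 1 with only the groups compared, the t-test or the study limits, 5 without the deviating channels and array 4, and 1 to 3 without a replicate.

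With the replicate number, which the samples of an array share, as a replicate block, the counts were those without it, for example 5 in KC against EC and 7 in KT against ET. Deviations from the group mean correlated between samples of an array at -0.65 to 0.40, so the numbers were not taken as pairs. Dim signals limit *C5ar1* outside Kupffer cells and *C1qa* and *C1qc* in the tumors.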

Other observations

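In the tumors, most of the 47 other complement genes were low as well. In TM against KC 35 were called lower and 3 higher, against 16.6% and 22.6% of all probes, and in TP against KT 32 lower and 3 higher, against 18.2% and 25.1%. *C2*, which encodes the partner of C4 in the classical pathway enzyme, differed by -10.93 ± 0.61 in TM against KC (limma adjusted p = 3.92e-14) and by -11.46 ± 0.61 in TP against KT (adjusted p = 1.31e-14). *Vsig4*, a macrophage receptor of C3 fragments that is also in the Kupffer marker list, was not well above background in TM and was at least 89.6-fold lower there than in KC. *Fcna* differed by -6.94 and -8.80. The genes called higher were *C1s* (2.78), *C1rl* (1.02) and *Clu* (2.27) in TM against KC, and *C1s* (1.86), *Clu* (3.28) and *Cd46* (1.37) in TP against KT, all named after their values were seen.

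Between TP and TM, 3 of the 47 were called. *Cd46*, a regulator that protects cells from complement, was higher in TP by at least 1.45-fold, as no TM channel was well above background (adjusted p = 0.000574). *Itgax* was 2.29 ± 0.56 higher (adjusted p = 0.0222). *Gpr77*, a second C5a receptor gene, was called lower in TP (adjusted p = 0.0123), but it was well above background in 2 TM channels and in no TP channel, and no fold is given. None of the 3 was called with normexp background correction.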
